A study of Mus musculus with 12 samples.

Results

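Day 21 embryoid bodies were compared with day 15 embryoid bodies, gene by gene, over the 6 arrays of these days among the 12 arrays of the series. The 6 were chosen by their titles, 3 for each day. Every array held RNA of undifferentiated ES cells in 1 channel and RNA of embryoid bodies (EB) of a single day in the other. ES cells were the R1 mouse line, grown undifferentiated with leukemia inhibitory factor on dishes coated with gelatin. For both EB groups, bodies were taken apart and plated in medium with serum, for 15 days in one group and for 21 days in the other. No directing factor was named, so each EB RNA is a mixture of whatever cell types formed. In such bulk RNA, fewer cells of a type and less RNA per cell cannot be told apart. Nothing in the labels tells whether the 3 arrays for a given day stem from separate cultures. All p-values therefore measure only the spread between arrays, which may be technical.

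Embryoid bodies are aggregates in which ES cells leave the pluripotent state and form derivatives of the embryonic germ layers side by side. An outer layer of visceral endoderm makes serum proteins such as alpha-fetoprotein and transthyretin, much as the yolk sac and later the liver do, while mesenchymal cells lay down collagen. The ES cell state is held by a circuit of transcription factors around Oct4 (Pou5f1), Sox2 and Nanog, and fast division is a hallmark of that state. The comparison asks which of the departures from ES cells still went on after day 15 and which had levelled off.

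Values are the deposited log ratios, read as log2, and a positive value is taken to mean more RNA in EB. That sign is likely but not settled: the label protocols give Cy5 to EB RNA, whereas the titles and the dye fields give the opposite order. Under the other reading every higher and lower is exchanged, while counts and p-values stay. Probes of a gene were averaged, which left 10689 features, 9212 of them genes. A feature is said to be called when limma's p for the difference, adjusted by Benjamini-Hochberg over all features, lay under 0.05. Values after ± are standard deviations over 3 arrays, and SE is the standard error of the difference from limma. With 3 arrays a day, the median SE over all features was 0.14, which sets the precision.

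The arrays fell into 2 sets. At 144 features with no gene name, array 3 of both days averaged -0.96 at day 15 and -0.88 at day 21, and arrays 1 and 2 between -0.20 and 0.03. Array 3 is in the same set on both days, so the comparison is balanced over the sets. Differences within each set are given beside a gene's own difference where they lie more than 1 apart, and for some other genes. At day 8, arrays 2 and 3 were both in the set of array 3. Day 8 means are thus not balanced over the sets against those of days 15 and 21. The EB labels were checked against marker genes. All 8 ES cell markers measured had means below 0 on both days, and all 6 measured markers of yolk sac and visceral endoderm and all 7 of mesenchyme had means above 0. Under the other sign, the ES cell markers would be higher in EB and these endoderm and mesenchyme markers lower. Heart muscle markers were mixed, with Myl4 at 1.59 and Nppa at -0.08 on day 15. The endothelial marker Pecam1 was at -0.04 and 0.08 on the 2 days and Cdh5 at -0.16 and 0.01. Ptprc, the 1 macrophage marker measured, was at 0.02 and 0.07.

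Between days 15 and 21 a single feature was called, Npff, which is 0.00936% of the 10689 features. Npff encodes the precursor of neuropeptide FF. Its ratio stood at 0.39, 0.45 and 0.26 on the 3 arrays of day 15 and at 1.16, 1.28 and 1.15 on those of day 21. All 3 later arrays lay above all 3 earlier ones, in both array sets. Npff rose by 0.83 (SE 0.10, 95% interval 0.61 to 1.04, limma adjusted p = 0.0208), from 0.37 ± 0.10 to 1.19 ± 0.07 (n = 3 each). At day 15 it had already been called against ES cells (limma adjusted p = 0.00632), so it is a change that went on. With the array number as a block, its adjusted p was 0.0882 and no feature was called; over 22 alternative settings the adjusted p ran from 0.00813 to 0.371. Leaving out any 1 of 8 arrays, among them each array of days 15 and 21, moved it to between 0.0504 and 0.191.

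No feature was called lower at day 21 by limma. At an unadjusted p under 0.05, 674 features differed (6.31% of those tested), 263 higher (2.46%) and 411 lower (3.85%). The 3 arrays of one day lay entirely above or below those of the other for 548 features that were higher (5.13%) and 779 that were lower (7.29%). Both held for 527 features (4.93%), 189 higher (1.77%) and 338 lower (3.16%). The median difference over all features was -0.01, and the interquartile range of the differences was -0.12 to 0.10. None of the genes below other than Npff was called, so their values are given as measured.

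**Figure D1:**
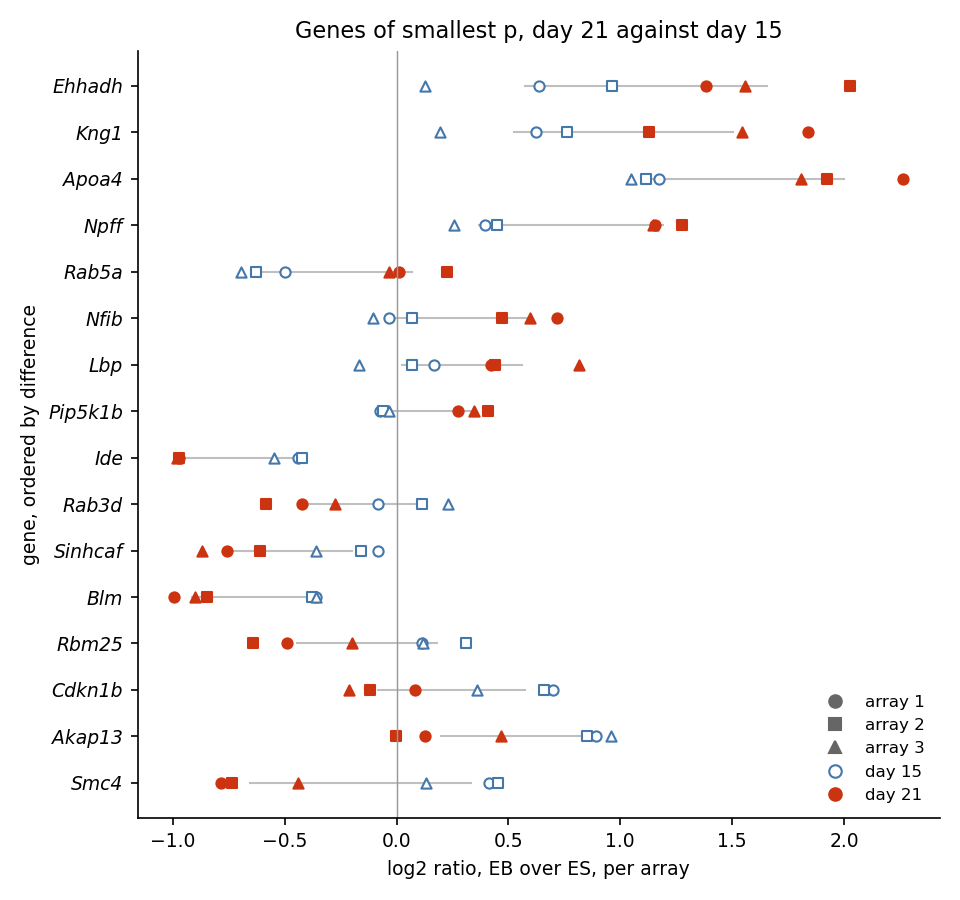
Log2 ratio of EB over ES (x axis) on each of the 3 arrays of day 15 (open symbols) and day 21 (filled) for the 16 genes with the smallest p and arrays that do not overlap, ordered by difference (y axis). Grey lines join the 2 means, and Npff, from 0.37 to 1.19, is the one gene that was called.

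On the higher side, 7 genes that were not called had the smallest p. Apoa4, an apolipoprotein of lipid transport made by gut and liver, had ratios of 1.17, 1.12 and 1.05 on the day 15 arrays and 2.27, 1.93 and 1.81 on the day 21 arrays. The difference was 0.89 (SE 0.21, limma adjusted p = 0.542), and every later array lay above every earlier one. Kng1, which encodes the kinin precursor kininogen, went from 0.62, 0.76 and 0.20 to 1.84, 1.13 and 1.54, a difference of 0.98 (SE 0.19, limma adjusted p = 0.461). Its 2 probes gave 1.36 and 0.60. Ehhadh, an enzyme of peroxisomal fatty acid oxidation, had a mean of 0.58 ± 0.42 and then 1.66 ± 0.33 (difference 1.08, SE 0.23). Lbp, a serum protein that binds bacterial lipopolysaccharide, went from 0.02 ± 0.17 to 0.56 ± 0.22. The groups of arrays did not overlap for either gene, and in array 3 the differences were 1.43 for Ehhadh and 0.98 for Lbp against 0.91 and 0.31 in arrays 1 and 2.

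Nfib, a transcription factor of the nuclear factor I family, read -0.03, 0.07 and -0.10 at day 15 and 0.72, 0.47 and 0.60 at day 21, a difference of 0.62 (SE 0.11, limma adjusted p = 0.461). At day 8 its mean was -0.47, so its ratio crossed from the ES side to the EB side. Rab5a, a GTPase of early endosomes, differed by 0.68 (SE 0.14) and came from -0.61 ± 0.10 to 0.07 ± 0.14, close to its ES level. Pip5k1b, a kinase that makes phosphatidylinositol bisphosphate, differed by 0.40 (SE 0.09).

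On the lower side, 8 genes that were not called had the smallest p. Smc4, a core subunit of condensin, which compacts chromosomes for mitosis, read 0.41, 0.45 and 0.13 on the arrays of day 15 and -0.79, -0.74 and -0.44 on those of day 21. It thus lay above its ES level on every earlier array and below it on every later one, with a difference of -0.99 (SE 0.21, limma adjusted p = 0.486), -1.19 in arrays 1 and 2 and -0.57 in array 3. Blm, a helicase that resolves recombination intermediates, was at -0.36, -0.38 and -0.36 and then at -0.99, -0.85 and -0.90. Its difference was -0.55 (SE 0.11, limma adjusted p = 0.461) and was alike in both array sets, at -0.55 and -0.54. Sinhcaf, a subunit of the Sin3 histone deacetylase complex, went from -0.20 ± 0.14 to -0.75 ± 0.13.

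Cdkn1b, which encodes the cell cycle inhibitor p27, was among them. It read 0.70, 0.66 and 0.36 at day 15 and 0.08, -0.12 and -0.21 at day 21, a difference of -0.66 (SE 0.14, limma adjusted p = 0.542). The arrays of the 2 days did not overlap, and the later mean of -0.08 was near the ES level. Akap13, a scaffold for protein kinase A, went from 0.90 ± 0.06 to 0.20 ± 0.24. Rbm25, a splicing regulator, differed by -0.63 (SE 0.13), with -1.02 on one probe and -0.23 on the other. Ide, the insulin-degrading enzyme, read -0.97, -0.97 and -0.98 on the later arrays after -0.44, -0.42 and -0.55 on the earlier ones. Rab3d, a GTPase of secretory vesicles, differed by -0.52 (SE 0.12).

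Changes that were large by day 15 could be followed directly. At day 15, 121 features (112 genes) were called against ES cells with a mean of at least 1 in size, 88 higher and 33 lower in EB, and 99 of them were still at least 1 in size at day 21. Measured in the direction of the day 15 change, their median difference to day 21 was 0.02, with an interquartile range of -0.24 to 0.28. Of the 121, 63 lay further from ES cells at day 21 and 58 nearer. With an unadjusted p under 0.05, 11 lay further and 3 nearer, against 6.31% of all features in either direction, and 0 were called by limma. The day 15 values chose these features and their error enters the difference, which favours nearer values at day 21. These counts therefore describe the set and test nothing, and a near-even split does not show that the changes had stopped. In array 3 the median was 0.21, and in arrays 1 and 2 it was -0.07. Just inside the size limit were Mybl2 at -1.01, Cfb at 1.01 and Lpar6 at 1.01, and just outside were Chd3 at 0.99, Mt2 at 0.99 and a feature with no gene at -0.997.

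**Figure D2:**
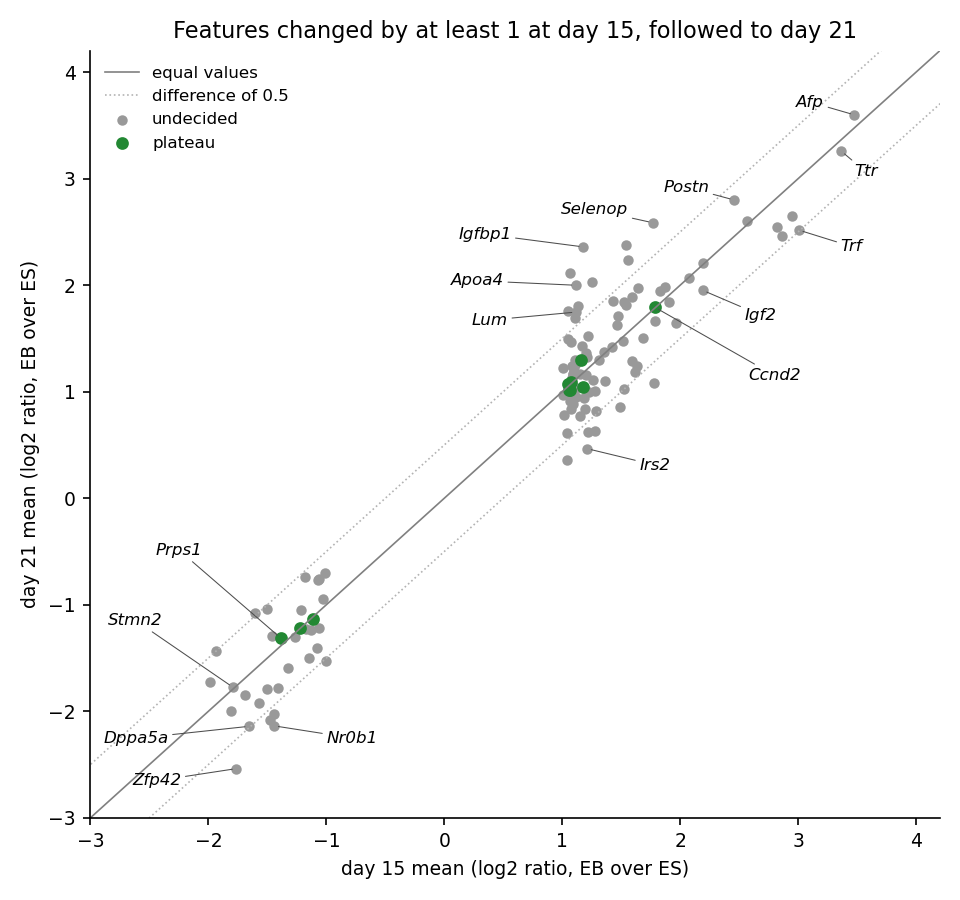
Mean log2 ratio at day 21 (y axis) against day 15 (x axis) for the 121 features called at day 15 with a size of at least 1, with lines of equal values and of a difference of 0.5. Points scatter around the line of equal values, 63 further from 0 at day 21 and 58 nearer, and the 10 plateau features are green.

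A missed threshold does not show a plateau, so a feature was counted as one only where the 95% interval of its difference lay within 0.5 of 0. Of all features, 63.5% had so narrow an interval, most of them near their ES level throughout. Of the 121 large changes, 10 met this margin and 66 met a margin of 1, which 96.4% of all features met. A margin of 0.5 times the day 15 mean was met by 31. The other 111 stayed undecided at 0.5. The median SE over the 121 was 0.31. Some features with a smaller SE missed the margin by the size of their difference. Examples are Zfp42 (-0.77, SE 0.19), which lay further from ES cells, and Bbx (-0.68, SE 0.17), which lay nearer.

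Ccnd2, a D-type cyclin, had the largest day 15 mean among the plateau genes. It read 2.04, 2.13 and 1.19 on the day 15 arrays and 1.74, 1.72 and 1.92 on the day 21 arrays, so the later arrays lay inside the span of the earlier ones. The difference was 0.01 (SE 0.21, interval -0.45 to 0.47), made up of -0.35 in arrays 1 and 2 and 0.72 in array 3, and without day 15 array 3 it was -0.29. Kmt2e, a chromatin protein with a SET domain, read closely alike on all 6 arrays: 1.01, 1.04 and 1.09 at day 15 and 1.08, 1.13 and 1.01 at day 21. Id2, which blocks DNA binding by basic helix-loop-helix factors, went from 1.05 ± 0.21 to 1.02 ± 0.22. Tceal9 went from 1.18 ± 0.31 to 1.04 ± 0.11.

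The fibrillar collagen genes Col3a1 and Col1a1 met the margin as averages of 3 probes. Col3a1 read 1.17, 1.17 and 1.14 and then 1.36, 1.36 and 1.16, a difference of 0.13 (interval -0.09 to 0.36). Its probes disagreed, with differences of -0.30, 0.59 and 0.11 and day 15 means of 3.15, 0.25 and 0.08, so the average hides unlike readings. Col1a1 was at 1.07 ± 0.28 and 1.02 ± 0.20, and its probes differed by 0.12, -0.15 and -0.11. The day 15 means of these probes were 2.03, 0.34 and 0.83, so not each of them reached a size of 1. The difference of the averaged gene was -0.23 in arrays 1 and 2 and 0.30 in array 3.

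On the side lower than ES cells, 3 genes met the margin. Prps1, a synthetase of the nucleotide precursor phosphoribosyl pyrophosphate, read -1.35, -1.47 and -1.33 at day 15 and -1.41, -1.28 and -1.24 at day 21. The difference was 0.08 (SE 0.14, interval -0.22 to 0.37). Mkrn1, a ubiquitin ligase, was at -1.22 on both days, and Morc1, a chromatin protein of germ cells, at -1.11 ± 0.25 and -1.13 ± 0.12. The remaining plateau feature had no gene name.

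**Figure D3:**
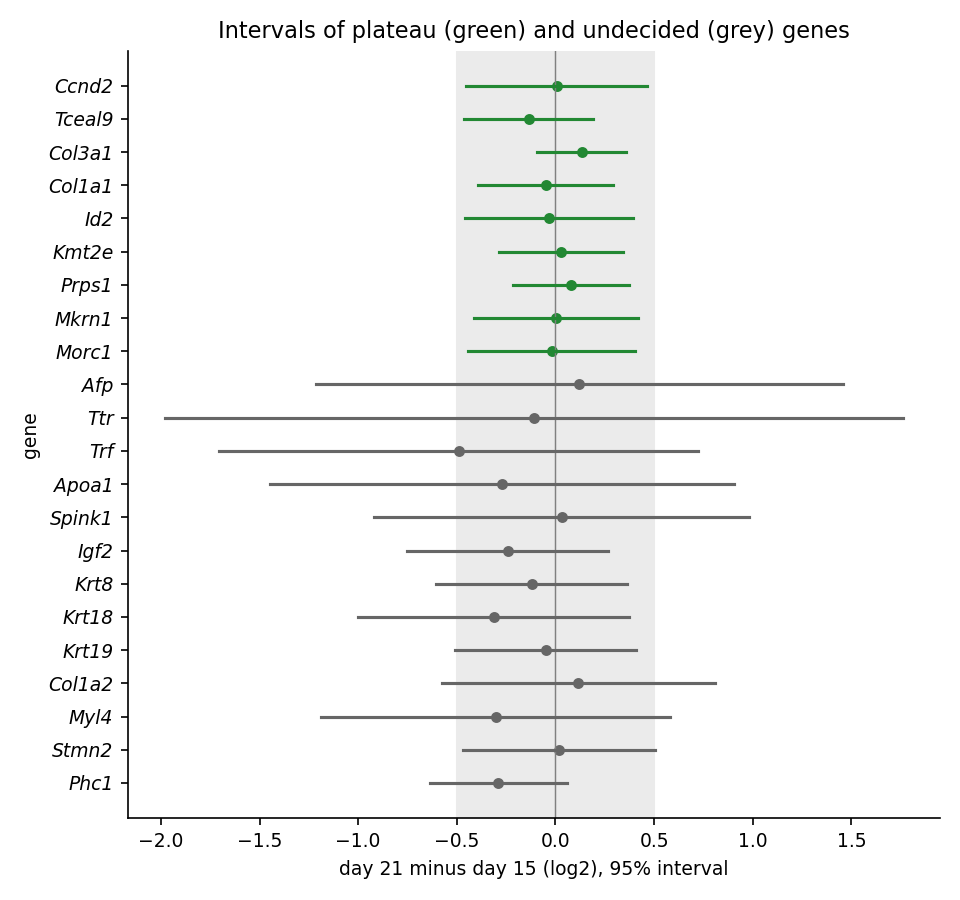
Difference of day 21 and day 15 (x axis, log2) with its 95% interval for the 9 plateau genes (green) and 13 undecided genes (grey), with the margin of 0.5 shaded. The point estimates of Afp (0.12) and Ttr (-0.11) lie near 0, but their intervals run past 1 on both sides.

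Endoderm and serum protein genes held the largest ratios of all. Afp, alpha-fetoprotein, read 3.35, 3.46 and 3.62 at day 15 and 4.10, 3.34 and 3.35 at day 21. Transthyretin (Ttr) read 3.33, 3.32 and 3.45 and then 3.80, 3.17 and 2.80. Both groups of arrays overlapped for either gene. In this fit, the differences of 0.12 (interval -1.21 to 1.46) and -0.11 (interval -1.98 to 1.76) settle neither a plateau nor a change. These intervals take in the spread of days 4 and 8 too. The SDs at days 15 and 21 were 0.14 and 0.44 for Afp and 0.07 and 0.50 for Ttr. Apoa1, the apolipoprotein around which high-density lipoprotein forms, went from 2.82 ± 0.09 to 2.55 ± 0.38 and the iron carrier Trf from 3.01 ± 0.59 to 2.52 ± 0.87. Spink1, a trypsin inhibitor, stood at 2.57 ± 0.08 and 2.60 ± 0.18.

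Of the 44 measured genes of the visceral endoderm and liver list, 26 were called against ES cells at day 15 and 31 at day 21, all higher. Over all features, the share called higher than ES cells was 5.66% at day 15 and 8.78% at day 21. Their median difference between the 2 days was 0.06, below 0 in 3 of 22 alternative settings, and 0 of 44 were called. At an unadjusted p under 0.05, 4 were higher (Alb, Apoa4, Fgb and Rbp2) and 0 lower, against 2.46% and 3.85% of all features. The 19 members that were large at day 15 split into 10 that lay further from ES cells at day 21 and 9 that lay nearer.

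Albumin stood apart within this list. Alb, the main serum protein of the liver after birth and a neighbour of Afp on chromosome 5, read 0.10, -0.03 and -0.13 at day 15 and 1.44, 1.18 and 0.12 at day 21. It was thus at its ES level on all 3 earlier arrays and well above it on 2 of 3 later ones. The difference was 0.94 (SE 0.25, limma adjusted p = 0.579), 1.28 in arrays 1 and 2 and 0.26 in array 3. Without array 3 of day 21 it was 1.33 and was called (limma adjusted p = 0.00234), and over the 22 alternatives the adjusted p ran from 0.00234 to 1. Its 2 probes gave 0.52 and 1.36. Other serum proteins lay between these courses: Fgb, a fibrinogen chain, read 0.42, 0.73 and 0.32 and then 1.07, 1.39 and 0.85. Fga, another fibrinogen chain, went from 1.26 ± 0.78 to 2.03 ± 0.68 and Selenop, a selenium carrier, from 1.77 ± 0.70 to 2.59 ± 0.37. Igfbp1, a liver protein that binds insulin-like growth factors and was picked after its values were seen, read 1.81, 1.47 and 0.26 and then 2.43, 2.74 and 1.91.

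The promoters of these neighbours are shown because the means took unlike courses. At day 21 that of Afp was near its day 15 mean, and that of Alb was first above its ES level. Whether Alb and Afp differ from each other in this was not tested. Each is the 250 bases before the gene's start in RefSeq on GRCm38.p6, 5′ to 3′, on the plus strand: Alb at chr5:90460620-90460869 and Afp at chr5:90490464-90490713. Capitals mark GTTAAT, part of the site of the liver and yolk sac factor HNF1, which was searched on both strands and is held by 6.43% of the 32851 promoters listed.
Alb: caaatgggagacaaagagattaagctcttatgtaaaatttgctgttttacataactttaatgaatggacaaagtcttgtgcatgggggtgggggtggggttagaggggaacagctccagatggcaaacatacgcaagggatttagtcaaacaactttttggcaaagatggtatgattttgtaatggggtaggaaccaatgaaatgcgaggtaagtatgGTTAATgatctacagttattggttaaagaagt
Afp: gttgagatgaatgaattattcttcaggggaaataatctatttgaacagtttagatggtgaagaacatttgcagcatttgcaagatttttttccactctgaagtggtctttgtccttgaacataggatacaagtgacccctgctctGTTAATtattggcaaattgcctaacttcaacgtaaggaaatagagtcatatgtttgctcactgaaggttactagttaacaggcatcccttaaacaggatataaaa
Each held 1 match, 32 bases before the start in Alb and 105 bases before it in Afp. TATAAA, the usual letters of a TATA box, was found once in Afp and not in these letters in Alb, and is held by 12.4% of the promoters. A match describes the letters and says nothing of binding in these cells.

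**Figure D4:**
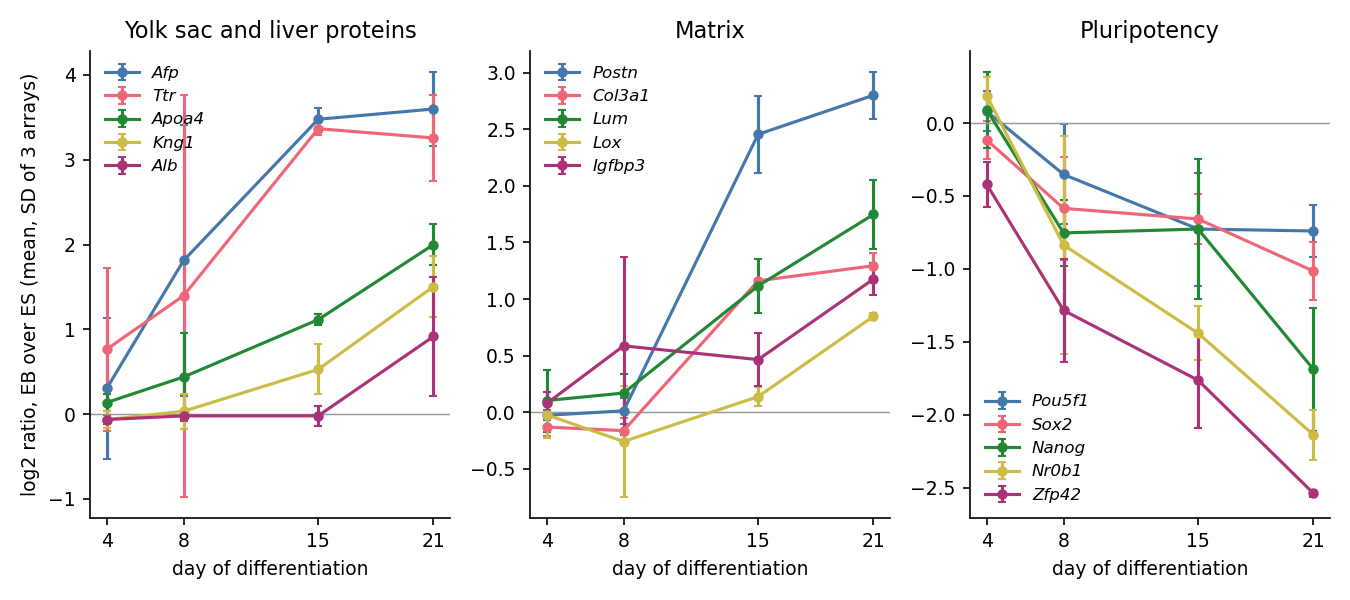
Mean log2 ratio of EB over ES (y axis, bars are the SD of 3 arrays) on days 4, 8, 15 and 21 (x axis) for genes of 3 groups. Afp and Ttr are at 3.48 and 3.37 by day 15 whereas Alb is at -0.02, and Zfp42 goes from -1.76 to -2.54 between the last 2 days whereas Pou5f1 stays near -0.73.

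Matrix genes leaned higher at day 21. Of 55 measured genes of interstitial matrix and mesenchyme, 42 had a difference above 0, against 47.97% of all features, and the median difference was 0.18. By unadjusted p under 0.05, 11 were higher and 0 lower, and for 13 the later arrays lay wholly above the earlier ones, against 2.46% and 5.13% of all features. None was called by limma. The list median was 0.36, 0.35 and 0.10 on the arrays of day 15 and 0.67, 0.52 and 0.44 on those of day 21, so it was higher on every later array. The number of members called higher than ES cells went from 17 to 32, a rise to set beside that from 605 to 938 over all features (5.66% to 8.78%).

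Lox, the enzyme that cross-links collagen, read 0.20, 0.18 and 0.04 and then 0.89, 0.83 and 0.83. Its difference was 0.71 (SE 0.19, limma adjusted p = 0.579), and the 2 days were well apart. Igfbp3, a binding protein of insulin-like growth factors, read 0.61, 0.59 and 0.19 and then 1.27, 1.23 and 1.02 (difference 0.71, SE 0.29). Lum, the collagen-binding proteoglycan lumican, picked after its values were seen, went from 1.12 ± 0.24 to 1.75 ± 0.31 with arrays that did not overlap. Tgfbi, an adhesion protein induced by TGF-beta, went from 0.69 ± 0.43 to 1.34 ± 0.19. Ltbp1, which holds latent TGF-beta in the matrix, went from -0.03 ± 0.17 to 0.57 ± 0.24. The ligand gene Tgfb2 went the other way, from 1.22 ± 0.70 to 0.63 ± 0.14. In the list of Wnt, BMP, TGF-beta and Notch signalling, 26 genes had a difference above 0 and 28 below, with a median of -0.01.

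Type V collagen, a regulator of fibril width, depended on the array. Col5a2 read 1.90, 1.51 and -0.26 and then 1.70, 1.69 and 2.12, so its difference of 0.79 (SE 0.45) was -0.01 in arrays 1 and 2 and 2.38 in array 3. Col5a1 differed by 0.19 in arrays 1 and 2 and by 1.64 in array 3. Postn, the matrix protein periostin, had the largest day 21 mean of the list, 2.80 ± 0.21 after 2.46 ± 0.34, and its 2 array sets gave differences of 0.14 and 0.76. Col1a2, a chain of type I collagen, was at 1.83 ± 0.66 and 1.94 ± 0.38, and these close means hide opposite directions: it differed by -0.46 in arrays 1 and 2 and by 1.28 in array 3. Its overall difference of 0.12 (SE 0.32) kept its sign in 16 of 22 alternative settings.

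Most pluripotency genes had lower values again at day 21. Of 32 measured, 18 were called lower than ES cells at day 15 and 22 at day 21, while over all features that share went from 4.90% to 9.93%. Their median difference was -0.19, and 24 were below 0. Unadjusted p-values under 0.05 were found for 7 lower and 0 higher members, and for 8 the later arrays lay wholly below the earlier ones, against 3.85% and 7.29% of all features. None was called by limma. All 9 members that were large at day 15 lay further from ES cells at day 21, beside 19 of the 33 large features lower in EB. The list median was -0.68, -0.76 and -0.26 on the day 15 arrays and -0.89, -0.81 and -0.38 on the day 21 arrays, which overlap because array 3 reads nearer 0 on both days.

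Zfp42 (Rex1), a zinc finger protein that marks undifferentiated cells, read -1.96, -1.95 and -1.38 at day 15. At day 21 it read -2.55, -2.51 and -2.55, the lowest mean of the list, and the difference was -0.77 (SE 0.19, limma adjusted p = 0.542), -0.58 in arrays 1 and 2 and -1.17 in array 3. Nanog, a core factor of the pluripotent state, read -1.04, -0.96 and -0.18 and then -1.54, -2.16 and -1.36. Its difference was -0.96 (SE 0.25, limma adjusted p = 0.579). The means of days 8 and 15 were -0.75 and -0.73 ± 0.48, the latter with array 3 well above the other 2 arrays. Nr0b1 (Dax1), a nuclear receptor of the same circuit, went from -1.44 ± 0.18 to -2.14 ± 0.17 and the RNA-binding protein gene Dppa5a from -1.66 ± 0.33 to -2.14 ± 0.18. For all 4 the arrays of the 2 days did not overlap. Gdf3, a ligand of the TGF-beta family, went from -0.79 ± 0.64 to -1.50 ± 0.53 with arrays that overlapped.

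Pou5f1 (Oct4) did not follow them in its values. It was at -0.73 at day 15 and -0.74 at day 21, a difference of -0.01 (SE 0.20, interval -0.46 to 0.43), while its partner Sox2 went from -0.66 to -1.01 (difference -0.36, SE 0.17). For Pou5f1 the difference was -0.30 in arrays 1 and 2 and 0.56 in array 3. Its interval lay within 0.5 of 0, but its day 15 size was under 1 and so outside the plateau class. Whether Pou5f1 and Nanog differ from each other was not tested.

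Promoters of Zfp42 and Nanog are shown because both genes read lower on every array of day 21 than on any array of day 15. Each is the 250 bases before a RefSeq start on GRCm38.p6, 5′ to 3′ along the gene: Zfp42 at chr8:43307010-43307259 on the minus strand and the downstream one of 2 starts listed for Nanog at chr6:122707315-122707564 on the plus strand. Capitals mark TTTGCAT, the core of the octamer that Oct4 binds, searched on both strands and held by 4.12% of the promoters listed.
Zfp42: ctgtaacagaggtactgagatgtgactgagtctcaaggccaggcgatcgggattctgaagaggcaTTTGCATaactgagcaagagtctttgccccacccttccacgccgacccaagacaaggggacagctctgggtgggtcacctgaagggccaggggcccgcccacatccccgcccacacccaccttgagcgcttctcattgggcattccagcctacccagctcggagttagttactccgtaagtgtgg
Nanog: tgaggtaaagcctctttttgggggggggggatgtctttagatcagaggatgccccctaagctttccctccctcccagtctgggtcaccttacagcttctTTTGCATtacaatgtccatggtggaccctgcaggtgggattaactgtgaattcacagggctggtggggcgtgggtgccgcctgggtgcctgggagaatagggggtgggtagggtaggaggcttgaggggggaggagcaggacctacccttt
Each held 1 match, 185 bases before the start in Zfp42 and 151 bases before it in Nanog. As for Alb and Afp, a match describes the letters and says nothing of binding in these cells. A link of these letters to the lower values was not tested.

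Genes of division and of ribosome assembly leaned lower at day 21. Of 61 measured genes of cell cycle and DNA replication, 50 had a difference below 0, against 52.02% of all features, and the median was -0.18. Under an unadjusted p of 0.05, 10 were lower and 0 higher, and 18 had all later arrays below all earlier ones, against 3.85% and 7.29% of all features. None was called between the days, but the number called lower than ES cells went from 14 at day 15 to 40 at day 21, against 524 and 1061 of all features (4.90% and 9.93%). The list median read -0.15, -0.22 and -0.22 and then -0.40, -0.43 and -0.33, so the days did not overlap. Within array 3 the median of the gene differences was -0.01, against -0.19 in arrays 1 and 2.

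Beside Smc4, Orc1, a subunit of the origin recognition complex, read -0.61, -0.58 and -0.62 and then -1.20, -0.95 and -0.93 (difference -0.42, SE 0.11). Kif20a, a kinesin of cytokinesis, read -0.14, -0.13 and -0.21 and then -0.50, -0.52 and -0.72. Both were apart on every array. Lig1, the ligase that joins Okazaki fragments, differed by -0.60 in arrays 1 and 2 and by -0.04 in array 3. Hells, a chromatin remodeller needed for DNA methylation, had the lowest day 21 mean of the list, -1.09 ± 0.15 after -0.77 ± 0.15, with differences of -0.16 in arrays 1 and 2 and -0.64 in array 3.

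The nucleolus list had the lowest median difference of all 32 lists, -0.24. Of 23 measured genes, 21 were below 0 and 7 had an unadjusted p under 0.05, all lower, against 52.02% and 3.85% of all features. The number called lower than ES cells went from 8 to 18, beside the rise from 4.90% to 9.93% of all features. None was called between the days. The list median read -0.30, -0.34 and -0.25 and then -0.61, -0.61 and -0.42. Ebna1bp2, a ribosome assembly factor, read -0.29, -0.29 and -0.51 and then -0.86, -0.76 and -1.12 (difference -0.55, SE 0.18). Gar1, a protein of the particles that modify ribosomal RNA, was at its ES level at day 15 (-0.01 ± 0.05) and at -0.51 ± 0.17 at day 21. Ncl, nucleolin, went from -0.22 ± 0.18 to -0.68 ± 0.11. Genes of the ribosomal proteins themselves had a median difference of -0.06, with 0 of 49 at an unadjusted p under 0.05.

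Chromatin regulators had a median difference of -0.12 over 34 genes, with 4 lower and 1 higher at an unadjusted p under 0.05, against 3.85% and 2.46% of all features. Dnmt3b, a de novo DNA methyltransferase, read -0.22, -0.17 and -0.44 and then -1.51, -1.32 and -0.23, so its difference of -0.74 (SE 0.33) was -1.22 in arrays 1 and 2 and 0.21 in array 3. Mtf2, a partner of the Polycomb complex PRC2, went from -0.84 ± 0.05 to -1.27 ± 0.28. Bmi1, a subunit of the Polycomb complex PRC1, was higher, at 0.40, 0.35 and 0.39 after -0.26, -0.05 and 0.19.

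**Figure D5:**
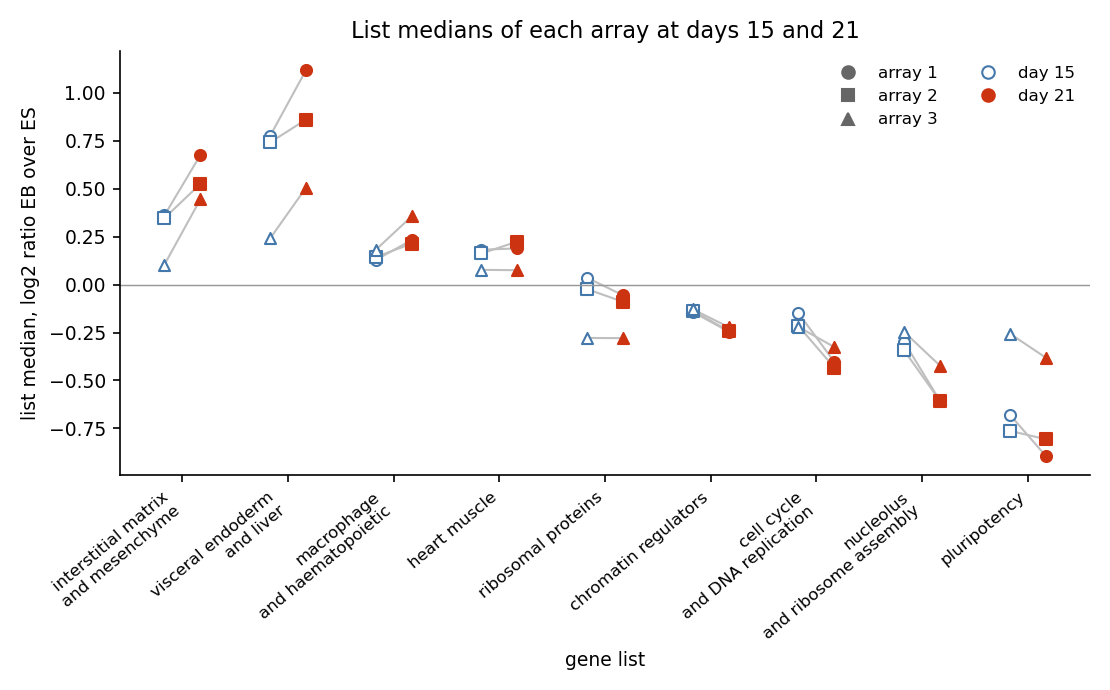
Median log2 ratio of EB over ES (y axis) over the measured genes of 9 lists (x axis), per array at day 15 (open) and day 21 (filled), with lines joining arrays of the same number. The matrix median is higher and the nucleolus and cell cycle medians are lower on every array of day 21 than on any of day 15.

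Macrophage and haematopoietic genes leaned higher at day 21. Of 30 measured, 5 were higher and 0 lower at an unadjusted p under 0.05, against 2.46% and 3.85% of all features, and 0 were called. The median difference was 0.08 (0.03 in arrays 1 and 2 and 0.15 in array 3), and 19 of the 30 were above 0. Members called higher than ES cells went from 6 to 13, beside 5.66% and 8.78% of all features. Ctss, a cathepsin of antigen-presenting cells, read 0.63, -0.17 and 0.46 and then 1.35, 0.45 and 2.34, a difference of 0.67 in arrays 1 and 2 and of 1.88 in array 3. Adgre1, a macrophage surface receptor, read 0.02, 0.04 and 0.33 and then 0.52, 0.40 and 1.02. Fcgr3, an Fc receptor, went from 0.79 ± 0.17 to 1.28 ± 0.15, and the general leukocyte marker Ptprc stayed at 0.02 and 0.07. The list medians were 0.13 to 0.18 over the day 15 arrays and 0.21 to 0.36 over the day 21 arrays, so the days did not overlap. The lean was not particular to this list. The median difference was above this list's in endothelium and fat cells (0.10 each) and in lysosome and hypoxia genes (0.09 each). It was also above this list's in neural and smooth muscle genes (0.08 each).

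Fabp4, a fatty acid carrier of fat cells and macrophages, read 0.28, 0.54 and -0.32 and then 1.38, 1.77 and 0.80, a difference of 1.15 (SE 0.29, limma adjusted p = 0.579). It was the only one of 17 fat cell genes with an unadjusted p under 0.05, and Pparg, the fat cell regulator, went from 0.25 ± 0.30 to 0.48 ± 0.51. Bnip3, a mitochondrial protein induced by hypoxia, read -0.28, -0.40 and -0.50 and then 0.31, 0.26 and 0.17, and so crossed its ES level on every array. Nnat, an imprinted gene of the nervous system and other tissues, read 0.72, 0.48 and 0.69 and then 1.09, 0.96 and 1.14. Igf2, an imprinted growth factor, went from 2.19 ± 0.21 to 1.95 ± 0.29.

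Epithelial and heart muscle lists had median differences near 0. The keratin genes Krt8 (1.79 and 1.67), Krt18 (1.96 and 1.65) and Krt19 (1.20 and 1.16) differed by less than 1 SE each, though Krt18 differed by -0.58 in arrays 1 and 2 and by 0.21 in array 3. Median differences were -0.04 for both simple epithelium and heart muscle, -0.03 for cartilage and bone, and 0.02 for imprinted genes. Skeletal muscle genes had a median difference of 0.04, and genes of smooth muscle and contractile cytoskeleton one of 0.08. The embryonic globin Hba-x went from 1.29 to 0.82 (difference -0.47, SE 0.38), and the neuronal gene Stmn2 was at -1.79 and -1.77.

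A second reading chose features by their day 8 means, although the spread of the day 15 and day 21 arrays enters the variance of that fit. The 244 features called against ES cells at day 8 (2.28%), 131 higher and 113 lower, were followed onward in the direction of their day 8 change. Their median was 0.58 at day 8, 0.40 at day 15 and 0.50 at day 21. Between days 15 and 21 the median difference was 0.04 (interquartile range -0.10 to 0.18), and 143 lay further from ES cells and 101 nearer. Of the 244, 109 had an interval within 0.5 of 0, a smaller share than the 63.5% of all features. None was called by limma. At an unadjusted p under 0.05, 21 lay further and 8 nearer, with 17 further and 5 nearer among those lower at day 8 and 4 and 3 among those higher. Of all features, 6.31% had such a p in either direction. Those lower at day 8 had a median of 0.07 and those higher one of 0.01, and the difference between the 2 sides was not tested.

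Zfp42, Nanog, Dppa5a and Nr0b1 are in this set, and each lay further from ES cells at day 21. Terf1, a telomere-binding protein, picked after its values were seen, was at -0.42 at day 8, -0.39 at day 15 and -0.92 at day 21. Nfib lay the other way. Sycp3, a meiotic chromosome protein picked in the same way, was at 0.85 at day 8, -0.44 at day 15 and -1.07 at day 21.

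Comparisons with other intervals share the day 15 arrays and are set side by side without a test. By the same rule, 19 features were called between days 8 and 15 (0.178%) and 1 between days 15 and 21. Only the latter comparison is balanced over the array sets, so these counts do not come from like comparisons. Against ES cells, 1129 features were called at day 15 (10.6%) and 1999 at day 21 (18.7%), while the median size over all features was 0.13 and 0.15. Features that became called are not thereby shown to differ between the 2 days.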

How the data were processed

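RNA was measured on 12 two-channel arrays, of which the 6 of days 15 and 21 are compared; groups come from the sample titles. The deposited values are log2 ratios by convention, normalized by the authors; the method, the scanner and the array design are not given in the sources used here. Genes were named through the platform annotation (10043 probes with 1 symbol, 29 with several and 1448 with none; 10025 matched in RefSeq). Features without 1 gene were kept singly.

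In R 4.3.3, limma 3.58.1 (lmFit, eBayes) fitted all 12 arrays with 1 mean per day, with 8 residual and 4.35 prior degrees of freedom. P-values were two-sided. Deviations of arrays from their day means correlated between the 2 days at 0.24, 0.15 and 0.39 for equal array numbers. Day 15 array 2 correlated at 0.18 with day 21 array 1, and day 15 array 1 at 0.14 with day 21 array 2. Between array 3 of one day and arrays 1 or 2 of the other the values ran from -0.30 to -0.20. Beyond the split of array 3 from arrays 1 and 2, a pairing by array number is not shown. Genes were named by smallest p or size of difference, by day 15 mean for plateau genes, and by difference or day 21 mean within 32 lists (914 genes measured). Members, lists and rules were chosen with earlier results of these data known. Alternatives were leaving out each array, the block, other scalings, weights, array sets, probes and filters. Promoters were found for 7266 of 9212 genes. Plots used matplotlib 3.10.9.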

Additional observations from a re-analysis of the deposited data

How the results depend on the processing

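Npff was 1 feature called, and 1 still moving, in the fit as reported. Both counts were 0 with the replicate block, on the 6 arrays of days 15 and 21 alone, after quantile normalization, after scaling to one spread, with the filter on low values, and in the 7 arrays of set 1, an alternative chosen after seeing the data; they ranged from 0 to 1 when 1 array was left out. Without day 21 array 3 the 1 feature called was Alb (limma adjusted p = 0.00234), not Npff (0.0504). No setting called a feature that turned back, and the block changed no other call of a named gene and left 9 plateau features. At an unadjusted p under 0.05, 674 features were counted; with arrays that do not overlap in addition, 472 were moving and 55 turning back. Moving here took in every such feature not called against ES cells at day 15, whichever way it went. None of those could count as turning back, so 472 against 55 does not measure continued departure from ES cells. Most of the 472 were of that kind. Among the 1129 features called against ES cells at day 15, 62 lay further and 55 nearer. The plateau count of 10 was 66 at a margin of 1, 31 at 0.5 times the day 15 mean (added later), 25 with array weights and 45 in set 1 alone, and ranged from 4 to 17 when 1 array was left out: 17 without day 8 array 1 or day 15 array 3, 4 without day 15 array 2 or day 21 array 2, 5 without day 21 array 1 and 6 without day 21 array 3. Of the 10, only 3 remained without day 15 array 3 or after scaling, 4 after quantile normalization, 5 in set 1 alone and 7 on days 15 and 21 alone, where the counts were 17, 9, 9, 45 and 14, and 4 remained without day 15 array 2 or without day 21 array 1 or 2. Without day 15 array 3 the set of large changes went from 121 to 221. The cause of the other shifts was not tested. The list medians of matrix (0.10 to 0.21), cell cycle (-0.23 to -0.11), nucleolus (-0.33 to -0.13) and pluripotency (-0.26 to -0.05) kept their sign in all 22 settings run on genes, whereas that of visceral endoderm and liver (-0.02 to 0.13) did so in 19. Of the 222 named genes, only Npff and Alb were called in any of these settings, both higher.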
